A study of Mus musculus with 12 samples.

Results

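The genes described here are those whose mean in the cultured CD8+ NKT-like cells lay at least 1 log2 unit, that is 2-fold, above or below the mean of each of 3 other T cell groups. Of 18193 genes measured, 252 did so: 211 lay above all 3 other means (1.16% of the genes tested) and 41 below all 3 (0.225%). The group means themselves chose these genes, so the differences between NKT-like cultures and the other groups describe the choice and are given as values. RNA came from 12 samples of mouse spleen T cells, 1 Affymetrix array each, with female C57BL/6 mice of 8 to 12 weeks as the source per the labels. The 5 NKT-like samples were CD8+ T cells, enriched by removing other spleen cells and grown with beads carrying anti-CD3 and anti-CD28 and a high dose of interleukin-2; the labels call them suppressive. The 3 cultured CD4+ samples were sorted CD4+ T cells grown by the same protocol and less suppressive per the labels, the 2 naive samples were CD8+ T cells straight from the spleen, and the 2 activated samples were CD8+ T cells given the same pair of antibodies in soluble form at low dose. The comparison asks which genes set the suppressive cultures apart from a culture control, a baseline and a conventional activation at once. All samples are cell populations rather than clones, so a lower level cannot tell fewer cells of a type from less RNA per cell. The study calls the CD8+ and CD4+ cultures independent, which it does not say of the naive and activated samples, and p and q values measure only the spread between these samples. No naive CD4+ sample entered this comparison, so lineage and culture cannot be told apart in the cultured CD4+ samples.

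Cytotoxic lymphocytes kill by releasing granules that hold perforin, which opens the membrane of the target cell, and granzymes, serine proteases that enter and cleave proteins there. Natural killer (NK) cells do so under the control of germline-encoded receptors, many of them lectin-like and encoded side by side in the NK gene complex, and T cells with such receptors are called NKT-like. Naive T cells, in contrast, express homing and quiescence genes that are shut down as effector cells form, and many lymphocytes keep a set of interferon-inducible GTPases and antiviral proteins at hand.

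Levels are RMA signals on a log2 scale, on which the median over all probe sets and arrays was 6.3; signals near the low end, down to 3.18, include array background. Detection calls were not used here, so a fold against a group at the low end is a ratio of RMA signals, which background can make smaller than the ratio of RNA. The CD8+ and CD4+ labels of the cultures held against the coreceptors. Cd8a measured 9.94 to 11.57 in the 5 NKT-like cultures and 6.42 to 6.92 in cultured CD4+ cells. Cd4 measured 6.76 to 7.08 and 9.82 to 10.10 in the same order. The coreceptors show lineage only and do not bear on NK character. Within groups, arrays differed by an SD of 0.282 to 0.482 log2 over probe sets, apart from cultured CD4+ replicates 2 and 3, which differed by only 0.204; replicate 1 stood 0.402 and 0.42 from them. With replicates 2 and 3 averaged to 1 sample, 207 of the 211 genes above and all 41 below still met the 2-fold rule, and without replicate 1 it was 180 and 38. Markers of other cell types were few among the 252 genes. Of 14 B cell markers measured, 2 lay below (Cd74 and H2-Aa) and 0 above, of 20 myeloid markers 1 lay above (Ctsg), of 11 NK cell markers 1 (Gzma), and of 11 red cell, 10 mast cell and basophil, 10 dendritic cell and 13 endothelial and stromal markers 0 in either direction. The mean level of the red cell markers was nevertheless 8.18 and 8.48 in the naive samples and 6.02 to 6.45 in all others, and that of the B cell markers 8.68 and 8.94 in naive samples and 6.16 to 6.98 in all others; their part in the differences from naive cells was not tested. The mean level of the NK cell markers was 7.16 to 7.41 in the NKT-like cultures and 6.23 to 7.07 in the other samples, with Ncr1 at 6.11 ± 0.08 (SD, n = 5).

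The genes above included a block of 5 neighbouring granzyme genes, among them Gzmg and Gzmf with the largest least differences of all. The upstream regions of the 5 are shown first because the genes lie side by side and all 5 met the rule above: each line holds the 250 bases before the transcription start, 5′ to 3′ on the gene's strand (RefSeq, GRCm38.p6). The start used is the first one listed for each gene, and for Gzmc and Gzmd it lies inside the gene's own span. Capitals mark the match to the RUNX core TGTGGTT, searched on both strands, which reads AACCACA here.
Gzmc, chr14:56234658-56234907, minus strand: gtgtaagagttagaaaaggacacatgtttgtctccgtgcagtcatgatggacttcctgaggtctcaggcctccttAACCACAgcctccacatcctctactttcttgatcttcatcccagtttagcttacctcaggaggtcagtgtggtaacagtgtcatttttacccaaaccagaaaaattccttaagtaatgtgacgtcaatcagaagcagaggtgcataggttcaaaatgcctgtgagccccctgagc
Gzmd, chr14:56132594-56132843, minus strand: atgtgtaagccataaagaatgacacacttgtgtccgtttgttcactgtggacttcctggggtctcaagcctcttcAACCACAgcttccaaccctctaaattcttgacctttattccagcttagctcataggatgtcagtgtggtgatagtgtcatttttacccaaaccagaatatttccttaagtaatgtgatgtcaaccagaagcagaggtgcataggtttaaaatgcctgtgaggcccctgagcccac
Gzme, chr14:56120626-56120875, minus strand: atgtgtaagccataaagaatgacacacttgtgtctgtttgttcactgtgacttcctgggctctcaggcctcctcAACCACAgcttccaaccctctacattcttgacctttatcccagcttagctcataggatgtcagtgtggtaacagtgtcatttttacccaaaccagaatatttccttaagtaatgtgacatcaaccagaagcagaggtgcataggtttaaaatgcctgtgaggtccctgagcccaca
Gzmf, chr14:56211408-56211657, minus strand: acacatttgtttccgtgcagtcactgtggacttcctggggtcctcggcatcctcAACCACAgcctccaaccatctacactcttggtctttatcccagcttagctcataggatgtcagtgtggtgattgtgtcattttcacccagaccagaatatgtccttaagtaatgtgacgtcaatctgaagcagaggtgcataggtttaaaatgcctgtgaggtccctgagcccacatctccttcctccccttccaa
Gzmg, chr14:56159580-56159829, minus strand: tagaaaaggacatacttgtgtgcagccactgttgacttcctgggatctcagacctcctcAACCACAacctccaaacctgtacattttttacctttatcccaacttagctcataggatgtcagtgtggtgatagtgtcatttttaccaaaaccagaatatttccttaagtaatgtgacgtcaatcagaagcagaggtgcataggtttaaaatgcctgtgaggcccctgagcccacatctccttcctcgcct
All 5 held 1 match, at 175 bases before the start in Gzmc and Gzmd, 176 in Gzme, 196 in Gzmf and 191 in Gzmg. Over the 5 regions the longest shared run was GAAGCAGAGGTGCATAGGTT, 45 bases before the start in Gzmc. Gzmd and Gzme were 94.8% identical over the 250 bases and Gzmf and Gzmg 82.7%, while Gzmb, the granzyme gene of most killer cells, was 47.3% to 52.2% identical to the 5 and 48.9% identical to Prf1. The RUNX core occurred in 526 of 14452 promoters (3.64%) and in 11 of the 165 promoters found for the genes above (6.67%). Of those 11, 5 are the related granzyme promoters. Each of the 7 motifs searched was more frequent in the genes above than over all promoters. The shares were 9.7% and 6.3% for the gamma-activated site, 5.45% and 3.83% for AP-1 and 5.45% and 2.63% for the interferon-stimulated response element. For the T-box they were 4.24% and 3.07%, for the E-box 9.09% and 7.56% and for NF-kappaB 0.606% and 0.173%. A match of letters is a description of the window and not a binding site.

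Granzymes D, E, F and G are protease genes known from cultured killer cells and NK cells of the pregnant uterus. Gzmg measured 11.78, 12.53, 13.07, 12.66 and 13.36 in NKT-like cultures 1 to 5, 5.32, 7.42 and 7.58 in cultured CD4+ cells, 4.20 and 4.44 in naive and 4.19 and 4.38 in activated CD8+ cells. Every NKT-like value lay far above the 7 others, with cultured CD4+ cells next. The mean was 59.9-fold above cultured CD4+ cells, the nearest group (log2 difference 5.91 ± 0.48 SE, q = 3.4e-05), and 329-fold above naive cells. Here and below q is the largest of the 3 comparisons in limma's fit over 45037 probe sets and 12 samples, and a gene is called when q is at most 0.01 and the difference at least 1 log2 in all 3.

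Gzmd stood at 13.14, 13.24, 12.92, 12.93 and 13.53 in the NKT-like cultures and at 6.37, 9.38 and 8.90 in cultured CD4+ cells. Naive and activated cells lay at the bottom of the scale, between 3.42 and 3.75. The least difference was 30.7-fold (q = 0.00023), and the gene's second probe set gave 5.02 log2. Gzme had 13.04, 13.53, 12.57, 12.67 and 13.87 against 6.98, 9.70 and 9.82 in cultured CD4+ cells and at most 6.08 in the other samples, a least difference of 19.7-fold (q = 0.001). Gzmf ranged more widely among the NKT-like cultures, from 9.38 in culture 3 to 12.33 in culture 5, and stayed at or below 5.55 in all other samples, a least difference of 36.1-fold. In Gzmd, Gzme and Gzmg cultured CD4+ replicate 1 was lower than replicates 2 and 3 by about 2 log2 or more; without it the least differences were 4.02, 3.38 and 5.18. Gzmc, of the same block, averaged 13.15 ± 0.29 in NKT-like cells and 9.04 in cultured CD4+ cells (q = 0.031, not called). These genes are close copies of each other, and how far their probes bind each other's RNA cannot be told apart from these values.

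Granzyme K, a protease gene of memory and innate-like T cells on another chromosome, separated differently. Gzmk measured 11.59, 12.49, 12.72, 11.61 and 12.22 in NKT-like cultures, 6.53, 6.56 and 6.70 in cultured CD4+ cells, 8.03 and 7.15 in naive and 6.92 and 6.75 in activated cells. Cultured CD4+ cells held the lowest values here, and naive CD8+ cells were nearest, 23.3-fold below (q = 5.3e-06). Prf1, the perforin gene, measured 11.49, 11.61, 12.79, 11.89 and 13.45 in NKT-like cultures and 6.72 to 8.44 in the 7 other samples. The 3 other groups lay within 0.75 log2 of each other, and the least difference was 17.2-fold, from activated cells (q = 0.00059; without activated replicate 2, 3.81 log2 and q = 0.015). A second Prf1 probe set with a low signal, 5.86 in NKT-like cells, showed no such difference. Of 11 perforin and granzyme genes measured, 8 met the rule above, 6 were called (background over all genes 0.572%) and 0 lay below. The list's median difference from the mean of the other groups was 5.12 log2, against -0.04 over all genes. Gzma reached 14.49 ± 0.07, near the top of the scale, with 12.64 in cultured CD4+ cells (q = 0.052). Gzmb did not meet the rule, since its mean of 14.34 was close to the 14.05 of activated cells, with cultured CD4+ cells at 13.55.

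Of 17 genes that package and release granules, 2 met the rule above (background 1.16%) and 0 were called (background 0.572%). Ctsd, a lysosomal protease, averaged 11.97 ± 0.58 (q = 0.017), and Rab27a, which docks granules at the membrane, 9.54 ± 0.36 (q = 0.026). Nkg7, a granule protein gene at 13.51 ± 0.15, lay just under the 2-fold limit from cultured CD4+ cells. Outside this list, and chosen after their values were seen, Sytl2, which encodes a partner of RAB27, was 5.56-fold above the nearest group (q = 0.00024), and Rab27b, a relative of Rab27a, 4.37-fold (q = 0.0051). The Rab27b call was lost without NKT-like replicate 3, cultured CD4+ replicate 2 or 3 or any 1 naive or activated sample (q from 0.011 to 0.038).

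**Figure D1:**
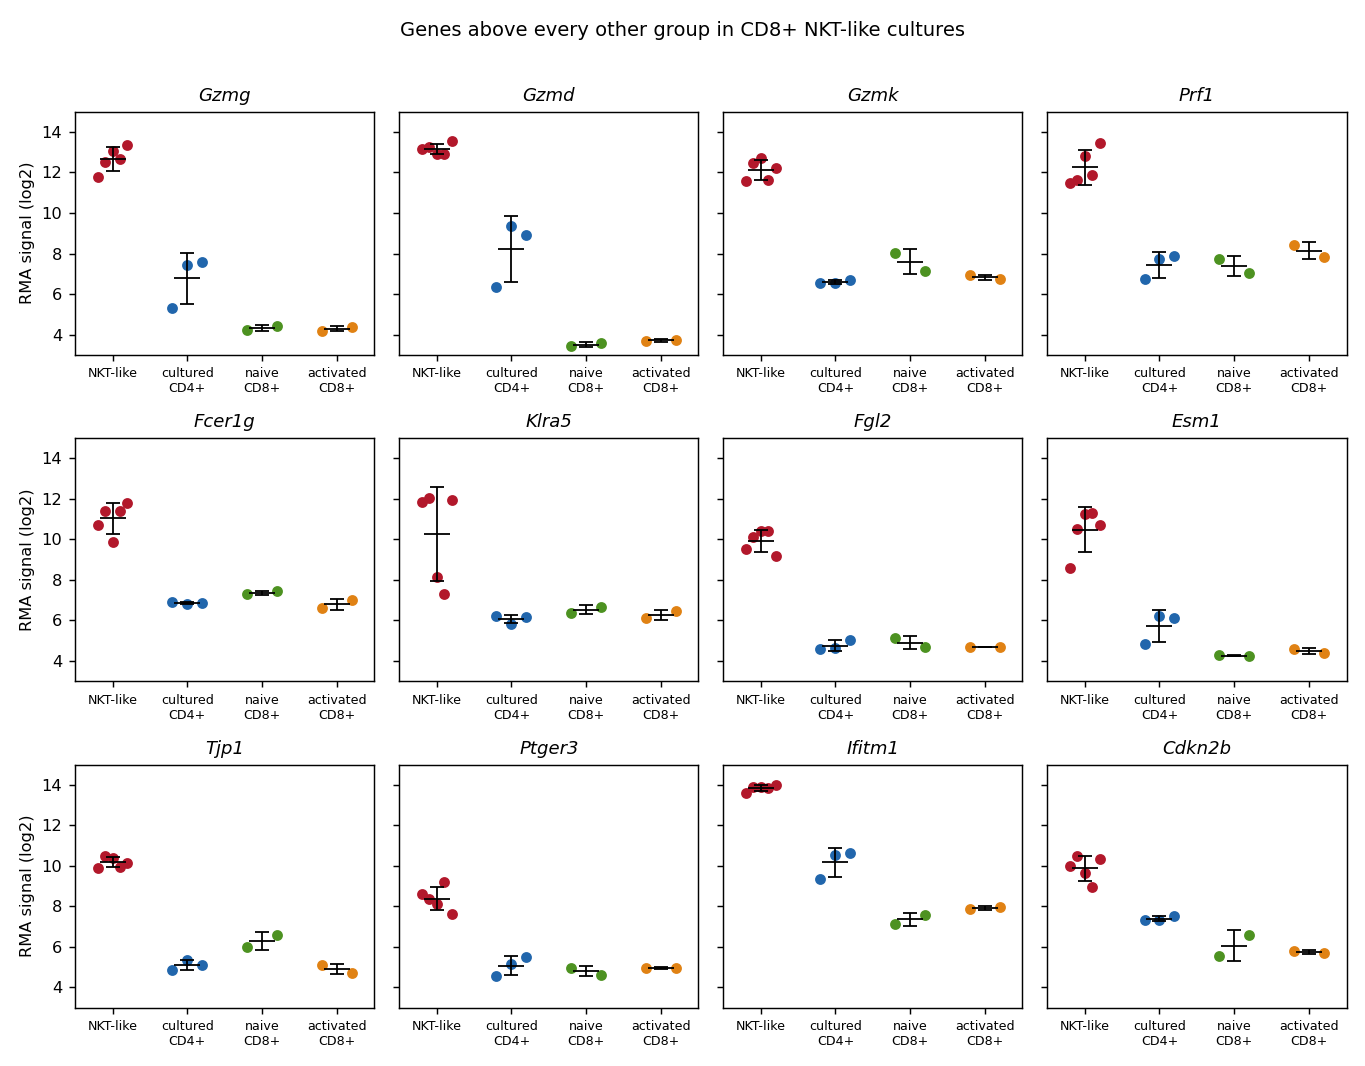
Genes above every other group, plotted as RMA signal (log2) for each of the 12 samples; points are samples, the long bar is the group mean and the whiskers are the SD. NKT-like values lie above all others in every panel, and Klra5 has its 2 low NKT-like values in cultures 3 and 4.

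Among 25 NK receptor genes, 8 met the rule above, 3 were called and 0 lay below. Over all genes 1.16% lay above and 0.572% were called above, which is the background for every list. The list's median difference was 0.50 log2, against -0.04 over all genes. Klra5, a Ly49 receptor gene, measured 11.83, 12.05, 8.17, 7.32 and 11.93 in NKT-like cultures 1 to 5 and 5.83 to 6.69 in the other samples. Cultures 1, 2 and 5 were high, and cultures 3 and 4 lay only a little above the other groups. The least difference was 13.2-fold and was not called (q = 0.045). Klrc1, which encodes NKG2A, was likewise lowest in cultures 3 and 4, at 10.92, 11.43, 8.46, 7.63 and 10.76, and culture 4 lay below activated replicate 1 at 7.76. Klrk1, the NKG2D gene, averaged 10.17 ± 1.45 and Klra7, another Ly49 gene, 7.23 ± 1.78. In Klrk1 cultures 3 and 4 were again lowest, at 9.13 and 8.15, whereas Klra7 was lowest in culture 3 (4.26) and highest in culture 4 (8.99). Ly49 genes are near copies of each other, so these probe sets may read more than 1 of them.

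The called NK receptor genes varied less among the NKT-like cultures, which the call itself favours, since a wide spread raises q. Pilrb1, an activating paired receptor gene, measured 9.46 to 10.72 in the NKT-like cultures and 6.86 to 7.58 elsewhere, with no overlap and a least difference of 5.79-fold (q = 0.00031). Klrg1, a receptor gene of terminal effector cells, averaged 8.96 ± 0.70 against means of 6.75 to 7.17 in the other groups (q = 0.008), a call lost without NKT-like replicate 2, 3 or 5 or any 1 sample of the other groups (q from 0.011 to 0.078). Cd244a, a SLAM-family receptor gene, measured 7.37, 7.80, 6.94, 7.30 and 8.93 against 5.34 to 5.75 (4.12-fold, q = 0.0054), and its second probe set gave 4.24 log2. The Cd244a call did not hold without NKT-like replicate 1 or 2 or without any 1 sample of the other groups (q from 0.01 to 0.048).

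Fcer1g encodes a signalling chain through which activating NK receptors and Fc receptors work. It measured 10.73, 11.39, 9.88, 11.39 and 11.80 in NKT-like cultures and 6.60 to 7.44 in the 7 other samples. The groups were far apart, with naive cells nearest at 12.7-fold below (q = 8.6e-05). It was the 1 gene of 8 NK adaptor genes that met the rule; Tyrobp, the related DAP12 gene, averaged 7.72 ± 0.76 and 7.08 in naive cells (q = 0.11). Of 5 measured genes of gamma delta and innate-like T cells, 1 lay above: Trgv4, a gamma chain variable gene, at 7.86 to 9.21 against 5.40 to 7.50 (2.37-fold, q = 0.0098). Its other probe sets gave 0.17 and 0.05 log2, and without naive replicate 2 the difference was 0.86 log2 (q = 0.19). The Trgv4 call was also lost without NKT-like replicate 1, 2 or 4, any 1 cultured CD4+ sample, naive replicate 1 or activated replicate 2 (q from 0.01 to 0.021).

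**Figure D2:**
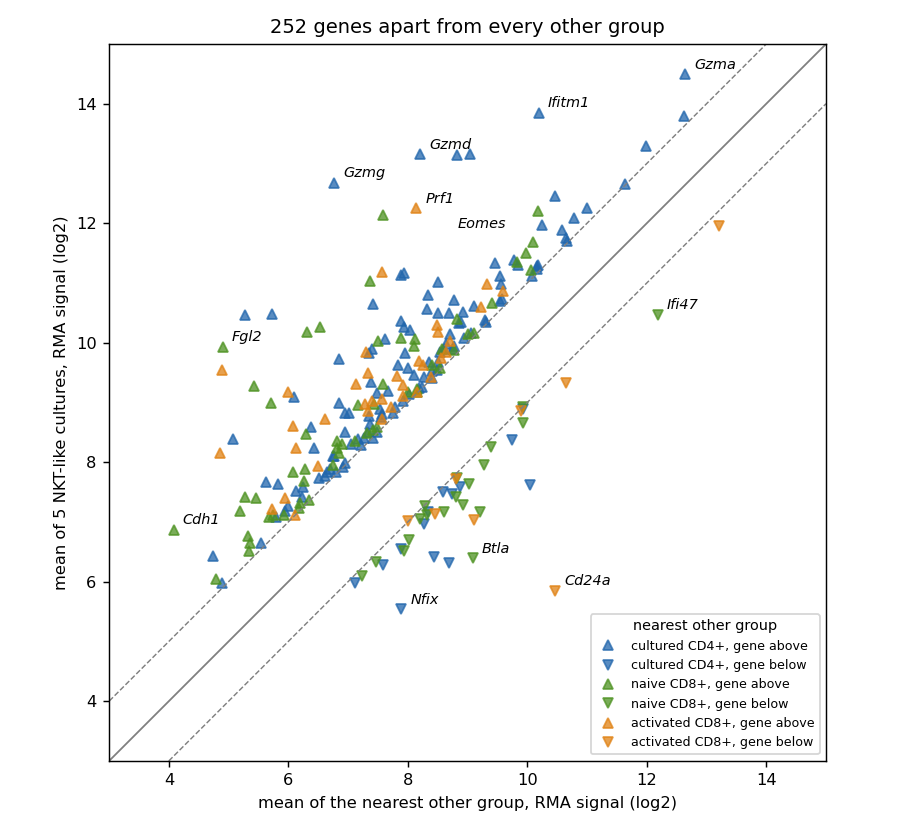
Mean RMA signal (log2) of the 252 genes in 5 NKT-like cultures against the mean of the nearest other group; colour gives that group, upward triangles are genes above and downward triangles genes below, the solid line is equality and dashed lines are 1 log2 from it. For 118 of the 211 genes above the nearest group was cultured CD4+ cells, for 57 naive and for 36 activated CD8+ cells.

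Among transcription factors of T cell fate, 7 of 41 lay above, 4 of them called, and 1 below, Bach2. Eomes, a T-box factor gene of cytotoxic lymphocytes, measured 11.41 to 11.92 in the NKT-like cultures, 9.49 to 10.39 in naive and activated CD8+ cells and 6.50 to 6.56 in cultured CD4+ cells. The other CD8+ groups thus lay between, and the least difference, 2.97-fold, was from naive cells (q = 0.00028). Mycn, a MYC-family gene, lay at 10.02 to 11.32 against 6.17 to 7.81 (9.35-fold, q = 9.6e-05). Zbtb32, a zinc finger repressor gene, measured 9.97 to 11.64 and was nearest to activated cells at 9.36 and 9.82 (q = 0.079). Plcg2 and Pik3cg, signalling genes in no list and chosen after their values were seen, had an SD of 0.13 and 0.22 among the NKT-like cultures. Plcg2, a phospholipase gene downstream of immune receptors, measured 8.98 to 9.35 against 7.25 to 8.02, and Pik3cg, which encodes a lymphocyte PI3 kinase, 9.28 to 9.81 against 7.81 to 8.40; both lay 2.23-fold above the nearest group (q = 5.9e-05 and 0.00025).

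Secreted factors gave 6 genes above of 31, 4 of them called, and 0 below. Fgl2, a secreted fibrinogen-like protein known from regulatory T cells, measured 9.54, 10.10, 10.42, 10.42 and 9.17 in NKT-like cultures. In the 7 other samples it stayed between 4.57 and 5.13, which is near the low end of the scale. The ratio of signals to the nearest group was 32.7 (q = 5.7e-06), and the second probe set gave a difference of 4.49 log2. Esm1, an endothelial proteoglycan gene, measured 8.60, 10.53, 11.27, 11.30 and 10.70 against 4.82, 6.21 and 6.14 in cultured CD4+ cells and 4.24 to 4.58 elsewhere (27.1-fold, q = 0.00043). Culture 1 was the low one. Ccn3, a matricellular protein gene, was high in culture 3, at 10.65, and 6.39 in culture 5, with the other groups between 4.50 and 4.95 (9.89-fold, q = 0.025). Cmtm7, a chemokine-like membrane protein gene, lay at 11.75 to 12.52 against 8.28 to 10.22 (4.08-fold, q = 7e-05).

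Receptors for lipid mediators and purines gave 6 genes above of 30 (background 1.16%), with 3 called (background 0.572%). The study reported Ptger3, P2ry14, Ltb4r1, Gpr34 and Gpr160 of these as raised against naive cells on the same arrays. Ptger3, the prostaglandin E2 receptor EP3 gene, measured 8.63, 8.39, 8.11, 9.19 and 7.62 in NKT-like cultures and 4.56 to 5.49 in all other samples. Outside the NKT-like cultures the signal was at the low end of the scale, with a ratio of 9.93 to the nearest group (q = 0.00019), although a second probe set with a low signal showed no difference. P2ry14, a receptor gene for UDP-sugars, measured 10.60 to 11.77, with 7.07, 8.27 and 8.44 in cultured CD4+ cells and 5.05 to 5.49 in naive and activated cells (9.44-fold, q = 0.00018). Ltb4r1, the leukotriene B4 receptor gene, measured 9.53, 8.42, 11.09, 9.98 and 9.59 against 6.26 to 7.11 (7.33-fold, q = 0.003). Its call did not hold without cultured CD4+ replicate 1, 2 or 3, naive replicate 2 or either activated sample (q from 0.012 to 0.023).

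In the TNF and costimulatory families, 4 of 33 genes lay above (background 1.16%), 1 of them called (background 0.572%). Below lay 2 (background 0.225%), both called (background 0.104%). Fasl, the death ligand gene, measured 10.77 to 11.57 in NKT-like cultures, with 6.52, 9.51 and 9.52 in cultured CD4+ cells. Cultured CD4+ replicate 1 was far below the other 2: the least difference was 5.65-fold with q = 0.028, and without that sample 1.50 log2 with q = 0.0053. Sema6d, a semaphorin gene, measured 9.97, 10.57, 7.22, 8.39 and 10.36, low in the same cultures as Klra5 (q = 0.071). Chemokine receptors gave 1 gene above, Cxcr6 (9.92 to 11.66, with 8.17, 10.25 and 10.27 in cultured CD4+ cells, q = 0.19), and 1 below, Ccr7.

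Of 35 adhesion and junction genes, 6 lay above (background 1.16%), 4 of them called (background 0.572%), and 1 below (background 0.225%). Tjp1, which encodes the tight junction scaffold ZO-1, measured 9.92, 10.48, 10.37, 9.96 and 10.13 in NKT-like cultures, 4.84, 5.34 and 5.12 in cultured CD4+, 6.00 and 6.61 in naive and 5.09 and 4.72 in activated cells. The 5 cultures had an SD of 0.25 and a mean 14.6-fold above naive cells, the nearest group (q = 7.1e-07). Cdh1, the E-cadherin gene, was lower in level, at 6.62, 7.15, 8.17, 6.65 and 5.75 against 3.60 to 4.11 (6.93-fold, q = 0.0021; without naive replicate 2 or either activated sample q from 0.011 to 0.025). Emilin2, an extracellular matrix gene, measured 10.60 to 11.83 against 6.29 to 7.90 (12.3-fold, q = 0.00023). Itgav, the integrin alpha V gene, measured 10.61 to 11.42 against 7.68 to 9.80 (2.94-fold, q = 0.0017).

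IFITM proteins block the entry of viruses and are induced by interferons. Ifitm1 measured 13.62, 13.88, 13.91, 13.85 and 13.99 in NKT-like cultures, 9.36, 10.54 and 10.65 in cultured CD4+, 7.14 and 7.58 in naive and 7.85 and 7.99 in activated cells. The NKT-like values were close together and near the top of the scale, 12.7-fold above cultured CD4+ cells (q = 8.8e-06). Ifitm2 measured 12.25 to 12.71, with 9.39, 10.97 and 11.03 in cultured CD4+ cells (3.99-fold, q = 0.0044; without NKT-like replicate 3, 4 or 5 q from 0.011 to 0.012). Of 7 IFITM genes these 2 met the rule; Ifitm3 averaged 11.93 ± 0.34 and 11.29 in cultured CD4+ cells (q = 0.42).

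Both genes of the Cdkn2a and Cdkn2b pair, neighbours on chromosome 4 that encode inhibitors of cyclin-dependent kinases, lay above. Cdkn2b measured 8.96 to 10.47 in NKT-like cultures, lowest in culture 4, against 7.34 to 7.52 in cultured CD4+ and 5.54 to 6.60 in the other cells. The values did not overlap, and the least difference was 5.6-fold (q = 0.001). Cdkn2a had 9.33, 9.39, 8.40, 7.66 and 10.17 against 5.23 to 7.21 (4.4-fold, q = 0.021). Of 7 such inhibitor genes 2 met the rule, and of 39 mitosis and replication genes 0 did in either direction; the mean level of the latter was 8.59 to 9.71 in NKT-like, 9.73 to 10.37 in activated and cultured CD4+ and 8.07 and 8.15 in naive samples. A list of 21 glycosyltransferases that build surface glycans was, like the inhibitor list, drawn up after values were seen. It held 7 genes above (background 1.16%), 2 called (background 0.572%) and 0 below, with a median difference of 1.19 log2. B4galnt4 measured 9.71 to 10.98, with 6.99, 8.50 and 8.59 in cultured CD4+ cells (4.58-fold, q = 0.0055; without NKT-like replicate 4 or 5 or any 1 sample of cultured CD4+ replicates 2 and 3, the naive cells or activated replicate 2 q from 0.01 to 0.016). B4galnt2, the Sda antigen enzyme, measured 6.78, 8.42, 9.30, 9.11 and 9.38 against 5.61 to 6.30 (5.75-fold, q = 0.014).

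Of the 211 genes above, 149 were in no list. Khdc1a, a KH domain gene known from early embryos, had the largest least difference among them, 8.94, 10.35, 9.10, 8.94 and 10.39 against 4.66 to 4.96 in all other samples. The other groups lay within a narrow range at the low end of the scale, with a ratio of signals of 25.4 to the nearest (q = 4.4e-05), and the neighbouring copy Khdc1b was also above (6.76 ± 0.65, q = 0.02). Klhl30, a kelch family gene, measured 8.70 to 9.81 against 4.94 to 5.48 (14.5-fold, q = 5.3e-06).

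Across the 211 genes above, the median of the least differences was 1.43 log2, 49 genes reached 2 log2 and 23 reached 3. At the limit, Sesn2 and Jun lay just inside, at 1.00 and 1.01 log2, and Vps37b and Nkg7 just outside, with differences under 1 that round to 1.00. In 104 of the 211 (49.3%) the difference from every group was called. Only genes that meet the 2-fold rule can be called, so the 0.572% of all genes called in this direction are these same 104. In 181 (85.8%) the 5 NKT-like values lay above all 7 others, as in 2.76% of all genes. Choice by group means also raises the share without overlap. Counted by probe set, 0.375% were called above and 0.0755% below. The other 3 groups were within 1 log2 of each other for 132 genes and all under 6.3 for 43. In 32 the mean was also at least 1 log2 higher in cultured CD4+ cells than in both naive and activated CD8+ cells, as in granzymes D, E and G. How many of all genes differ in this way was not counted. Among the other groups, 33 of the 211 (background 11.6%) were higher and 6 (background 5.58%) lower in cultured CD4+ than in naive cells at q of 0.01, and 3 each (background 4.35% and 2.68%) in activated against naive cells. Against activated cells, 14 (background 1.48%) were higher and 2 (background 0.319%) lower in cultured CD4+ cells. Among the genes above, 33 calls held without any 1 sample, including Gzmd, Gzme, Gzmf, Gzmg, Gzmk, Fgl2, Tjp1, Fcer1g, Ifitm1, Esm1, Ptger3, P2ry14 and Eomes. Of these, Gzmf (q = 0.034), Fcer1g (q = 0.011), Esm1 (q = 0.025), Ptger3 (q = 0.015) and Eomes (q = 0.012) lost the call with array weights, and Gzme (q = 0.022) with the replicate number as a block.

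The NKT-like cultures differed among themselves more in these genes than over all genes. The median SD over the 5 cultures was 0.49 log2 for the genes above, 0.43 for those below and 0.14 over all genes. Only 2 of the 211 genes above had an NKT-like mean under the median of all values, and genes of like level were not compared. In 20 genes above the SD exceeded 1. For 6 of the 20, cultures 3 and 4 were the lowest, as in Klra5, Klrc1, Klrk1, Sema6d and Gpr34, a lysophospholipid receptor gene (8.64, 9.94, 6.50, 8.07 and 9.21). Ccn3 and Sult2b1, a sulfotransferase gene, ran the other way, with culture 3 highest. The share of genes with cultures 3 and 4 lowest was 11.4% over the 211 and 13.3% over all genes. Culture 1 was nearest to the other groups in 77 of the 211 genes.

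**Figure D3:**
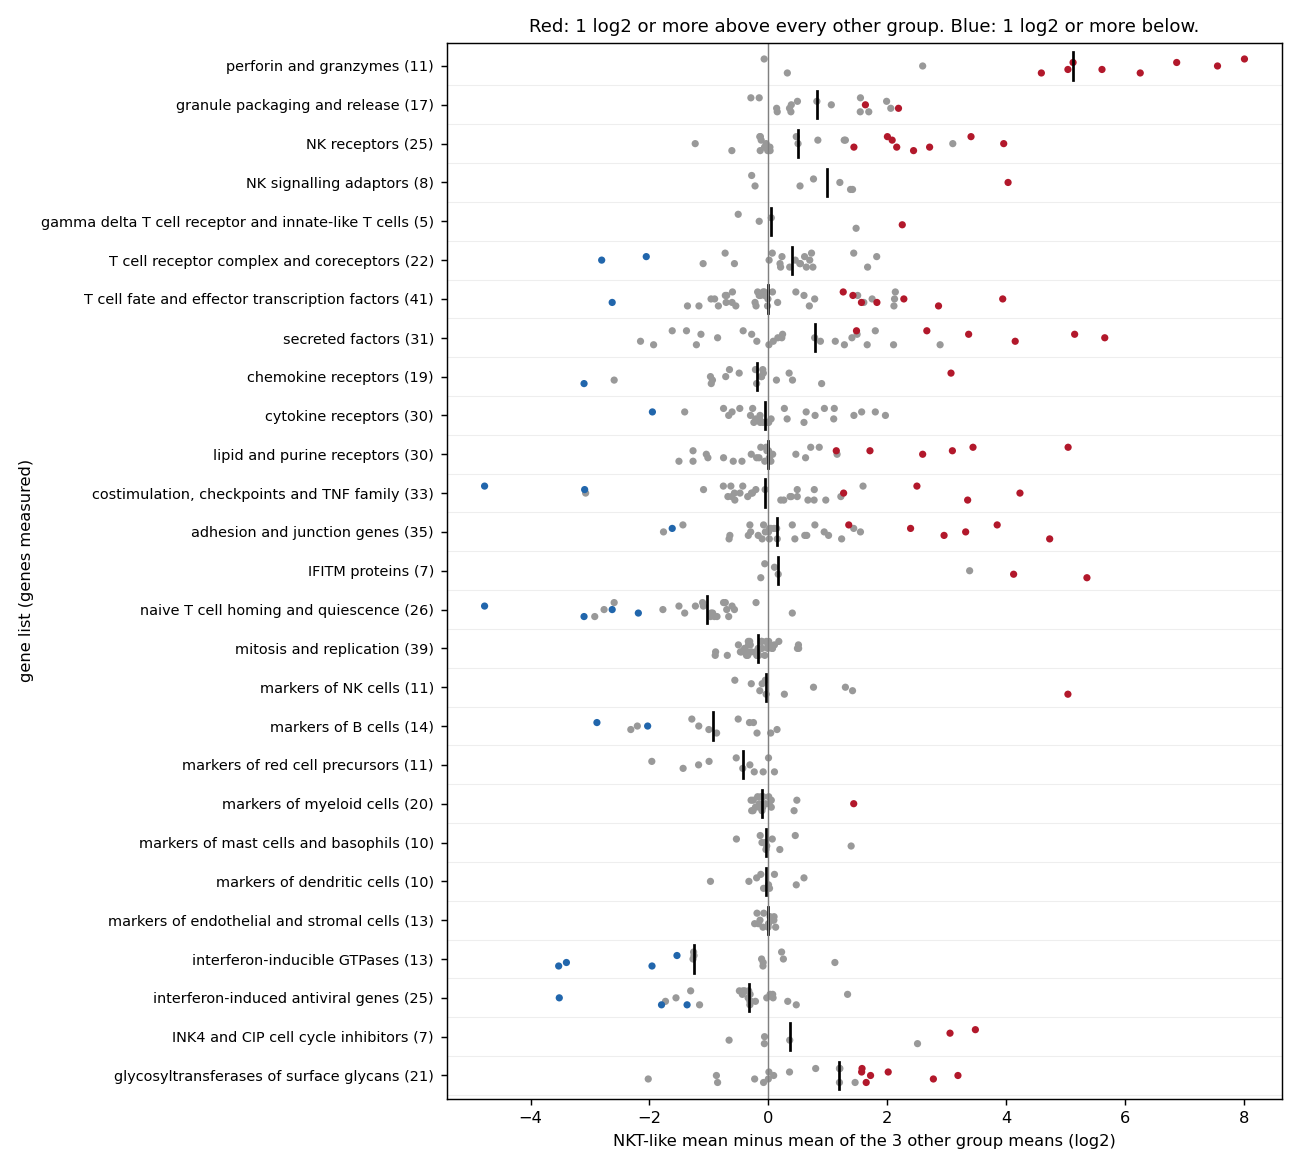
Each point is a gene of a list, placed by its NKT-like mean minus the mean of the 3 other group means (log2); red genes lie at least 1 log2 above every other group, blue genes below, grey neither, and black bars are list medians. The perforin and granzyme list has the highest median, 5.12, and the last 4 lists were drawn up after values were seen.

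Among the 41 genes below, Cd24a had the largest least difference. Cd24a, a small anchored glycoprotein gene known as heat-stable antigen, measured 4.77, 5.70, 6.93, 6.28 and 5.57 in NKT-like cultures and 10.22 to 11.33 in the 7 other samples. The 3 other groups were alike and high, and the NKT-like mean lay below the median of all probe sets. The least difference was 24.6-fold (q = 0.00024), and other probe sets gave -4.48 and -2.94 log2. Btla, an inhibitory receptor gene, measured 6.41, 6.41, 6.20, 6.43 and 6.50 against 8.98 to 10.11 (6.51-fold, q = 2.4e-05).

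Bach2, a repressor gene that restrains effector genes, measured 8.11, 8.09, 7.19, 8.13 and 6.53 in NKT-like cultures and 9.89 to 10.76 in the others. It was lower than each other group by at least 5.38-fold (q = 0.0023), and further probe sets gave -2.33 and -0.12 log2. The call did not hold without naive replicate 1, cultured CD4+ replicate 2 or 3 or either activated sample (q from 0.011 to 0.018). Ccr7, the lymph node homing receptor gene, measured 6.18 to 6.55 in NKT-like cultures, 8.64, 8.29 and 8.36 in cultured CD4+, 10.87 and 8.70 in naive and 10.71 and 9.90 in activated cells. The least difference, from cultured CD4+ cells, was 4.07-fold (q = 0.009), and the call was lost without any 1 NKT-like or cultured CD4+ sample (q from 0.018 to 0.045). Of 26 genes of naive T cell homing and quiescence, 4 met the rule below (Cd24a, Bach2, Ccr7 and Igfbp4), 3 were called (background 0.104%) and 0 lay above, with a median difference of -1.03 log2. Lef1 and S1pr1 of this list did not meet the rule: Lef1 averaged 9.27 in NKT-like, 11.50 in naive and 9.47 in activated cells, and S1pr1 6.67, 10.01 and 7.02. Aff3, a nuclear factor gene of lymphocytes, measured 6.04 to 6.70 against 8.53 to 9.70 (5.18-fold, q = 3e-05), and Nfix, a nuclear factor I gene, 5.14 to 6.19 against 7.71 to 9.56 (5.12-fold, q = 0.0024; q from 0.01 to 0.018 when cultured CD4+ replicate 1, 2 or 3 was left out).

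Cd5 and Cd6, adjacent genes of related receptors that dampen T cell receptor signals, were the 2 of 22 T cell receptor complex genes below; 0 lay above. Cd5 measured 7.33, 6.55, 8.05, 7.81 and 6.07 in NKT-like cultures, 9.79, 10.78 and 10.83 in cultured CD4+, 9.91 and 8.50 in naive and 10.57 and 9.86 in activated cells. The values did not overlap, but naive replicate 2 lay close to NKT-like culture 3. The least difference was 4.11-fold (q = 0.0091), and without naive replicate 1 it was -1.34 log2 (q = 0.11). Cd6 measured 7.69 to 8.16 against 8.59 to 10.84 (2.51-fold, q = 0.0065; without naive replicate 1, -0.64 log2 and q = 0.1). The Cd5 and Cd6 calls were also lost without several other samples: Cd6 without any 1 NKT-like sample (q from 0.01 to 0.013) and Cd5 without NKT-like replicate 1, 2, 4 or 5, cultured CD4+ replicate 2 or 3, naive replicate 2 or either activated sample (q from 0.011 to 0.031). Cd81, a tetraspanin gene, measured 6.08 to 6.72 against 7.76 to 10.40 (2.68-fold, q = 0.00054; without naive replicate 1, q = 0.011).

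**Figure D4:**
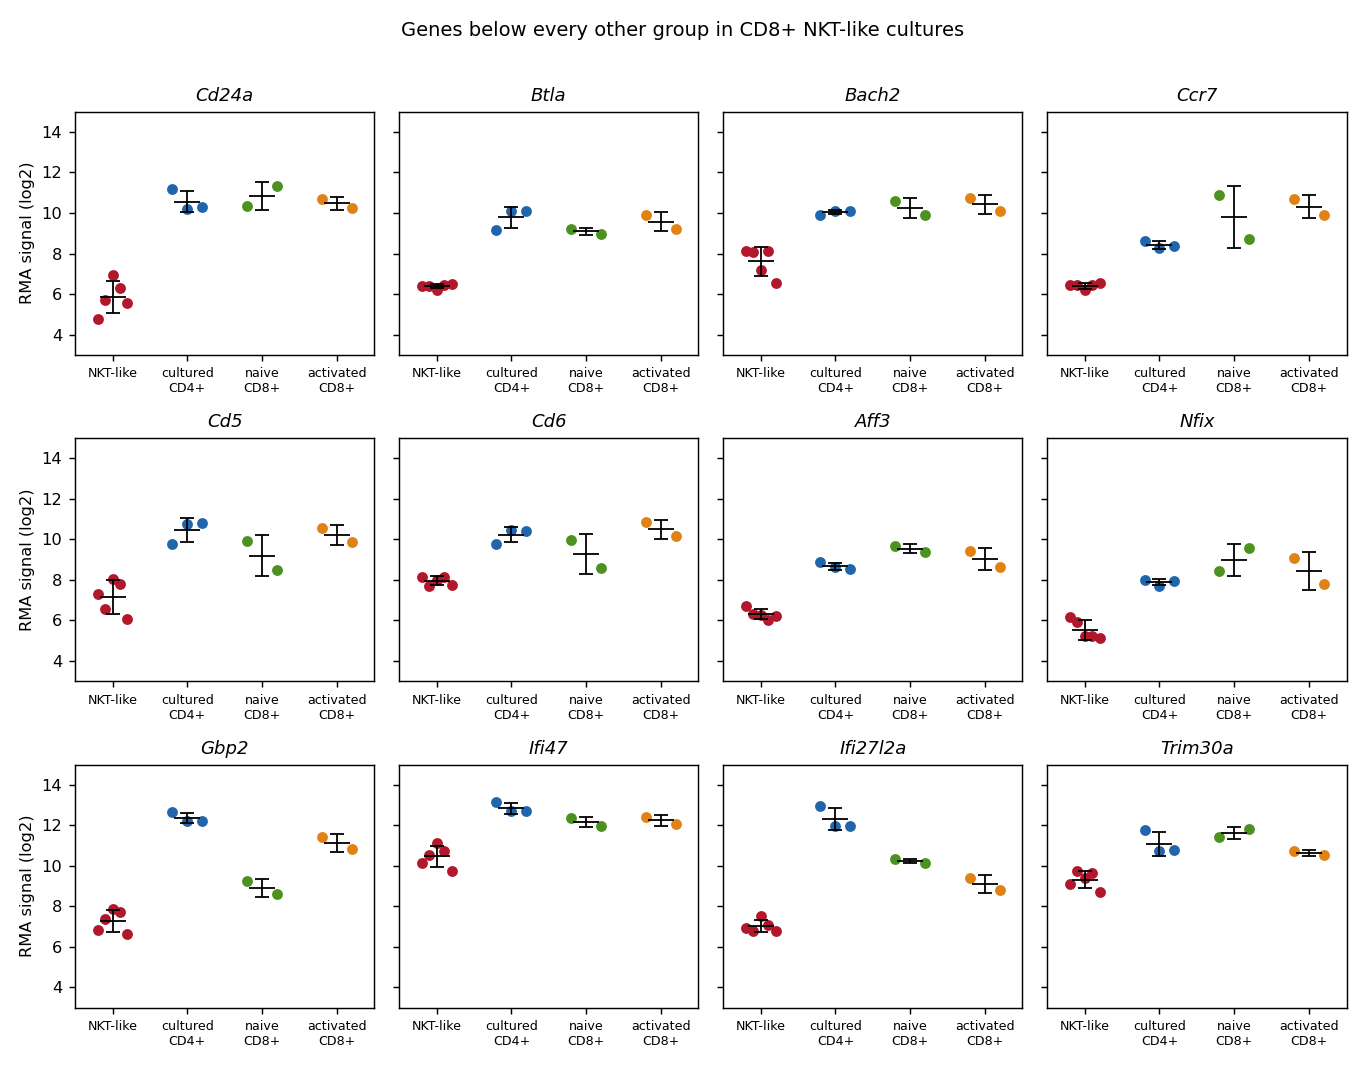
Genes below every other group, plotted as RMA signal (log2) for each of the 12 samples; points are samples, the long bar is the group mean and the whiskers are the SD. Cd24a lies at 4.77 to 6.93 in the NKT-like cultures and at 10.22 to 11.33 elsewhere, and Gbp2, Ifi47 and Ifi27l2a are highest in cultured CD4+ cells.

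Of 13 interferon-inducible GTPase genes 4 lay below, and of 25 interferon-induced antiviral genes 3, both lists drawn up after values were seen. The regions before the start of 3 of these 7 genes are shown because they hold the letters of the interferon-stimulated response element, the site of interferon regulatory factors, searched on both strands of the 250 bases as GAAA, 2 bases of any kind and GAAA; capitals mark the match (RefSeq, GRCm38.p6, 5′ to 3′ on the gene's strand).
Gbp2, chr3:142620413-142620662, plus strand: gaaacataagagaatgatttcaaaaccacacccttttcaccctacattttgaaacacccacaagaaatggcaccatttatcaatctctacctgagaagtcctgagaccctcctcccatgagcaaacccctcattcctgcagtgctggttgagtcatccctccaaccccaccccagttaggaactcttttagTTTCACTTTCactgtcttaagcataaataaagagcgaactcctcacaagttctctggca
Irgm2, chr11:58214727-58214976, plus strand: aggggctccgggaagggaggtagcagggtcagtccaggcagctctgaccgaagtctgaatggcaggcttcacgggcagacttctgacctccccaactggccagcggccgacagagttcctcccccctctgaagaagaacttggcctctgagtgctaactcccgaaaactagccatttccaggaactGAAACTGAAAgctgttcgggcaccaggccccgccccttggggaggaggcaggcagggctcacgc
Trim30a, chr7:104465194-104465443, minus strand: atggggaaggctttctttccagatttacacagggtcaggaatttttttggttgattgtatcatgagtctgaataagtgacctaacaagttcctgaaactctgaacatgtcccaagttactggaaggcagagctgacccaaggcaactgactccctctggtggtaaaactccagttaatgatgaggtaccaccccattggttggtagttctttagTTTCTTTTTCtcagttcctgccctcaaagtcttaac
The match lay 59, 64 and 36 bases before the start, in the same order. Of 30 promoters found for the genes below, 5 held a match (16.7%; Ctss, Gbp2, Irgm2, Plxnc1 and Trim30a), against 2.63% of 14452 promoters and 5.45% of the 165 promoters of the genes above. With 5 matches in all, these shares are a description. The element was 1 of 7 motifs searched. In the genes below and over all promoters, the gamma-activated site occurred in 6.67% and 6.3%, and the RUNX core in 6.67% and 3.64%. For AP-1 it was 3.33% and 3.83%, for the E-box 3.33% and 7.56%, for the T-box 0% and 3.07% and for NF-kappaB 0% and 0.173%.

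Interferon-inducible GTPases attack membranes of vacuoles that hold pathogens. Gbp2 measured 6.84, 7.37, 7.85, 7.75 and 6.62 in NKT-like cultures, 12.64, 12.20 and 12.23 in cultured CD4+, 9.24 and 8.61 in naive and 11.43 and 10.82 in activated cells. Each group had its own level, with cultured CD4+ cells highest and the NKT-like cultures below even the naive cells. The least difference was 3.12-fold (q = 0.0024; without naive replicate 1 or 2 q = 0.037 and 0.017), and the difference from cultured CD4+ cells was -5.07 log2; a second probe set gave -1.90. Ifi47 measured 10.16, 10.56, 11.12, 10.76 and 9.74 against 11.99 to 13.16 (3.26-fold, q = 0.0042; without either naive or either activated sample q from 0.017 to 0.028). Iigp1 measured 7.05, 6.13, 8.56, 6.12 and 5.60, with 11.36 to 12.13 in cultured CD4+ and 7.79 and 8.25 in naive cells (q = 0.059). Irgm2 measured 6.72 to 8.23 against 8.70 to 10.21 (q = 0.033). Of the 13 GTPase genes, 4 lay below (background 0.225%), 2 were called (background 0.104%) and 0 lay above, with a median difference of -1.25 log2. Others did not follow: Gbp3 averaged 8.58 ± 0.34 in NKT-like and 7.47 in naive cells, and Mx1 7.47 ± 0.69 and 6.14.

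Of the 25 antiviral genes, 3 lay below (background 0.225%), 1 was called (background 0.104%) and 0 lay above. Ifi27l2a, a small membrane protein gene induced by interferons, measured 6.92, 6.81, 7.55, 7.09 and 6.79 in NKT-like cultures, 12.94, 11.99 and 11.98 in cultured CD4+, 10.32 and 10.16 in naive and 9.41 and 8.80 in activated cells. It was lowest in all 5 NKT-like cultures, 4.2-fold below activated cells (q = 0.0011), and its call held without any 1 sample, as did those of Cd24a, Btla and Aff3. With array weights and with the replicate number as a block, the calls of Ifi27l2a (q = 0.02 and 0.031) and Cd24a (q = 0.018 and 0.016) were lost. Trim30a, a regulator of innate signalling, measured 8.70 to 9.73 against 10.54 to 11.84 (2.5-fold, q = 0.021). Ifih1, the RNA sensor MDA5 gene, measured 6.91 to 7.25 against 7.67 to 9.34 and lay at the 1 log2 limit (q = 0.015). Ifitm1 and Ifitm2 of the same interferon-induced class lay above, as given before.

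Among the B cell markers, H2-Aa, an MHC class II gene, measured 5.74 to 6.23 in NKT-like cultures, 9.33, 5.84 and 6.16 in cultured CD4+, 11.72 and 12.13 in naive and 8.17 and 6.95 in activated cells. Cultured CD4+ replicates 2 and 3 overlapped the NKT-like cultures, and replicate 1 alone stood above them: without it the difference was -0.02 log2. Cd74, its invariant chain gene, measured 7.36 to 7.82 and 10.77, 7.89 and 7.97 in cultured CD4+ cells (q = 0.3).

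Of the 41 genes below, 19 (46.3%) were called, and these same 19 are the 0.104% of all genes called below. In 37 of the 41 (90.2%) the NKT-like values lay under all 7 others, as in 0.989% of all genes. Naive cells were nearest for 19, cultured CD4+ cells for 14 and activated cells for 8. The median of the least differences was -1.31 log2, and 8 genes reached 2 log2. In 5 the NKT-like mean fell under 6.3, among them Cd24a and Nfix. Ifih1 and Sla, an adaptor gene, lay just inside the limit, Sla at -1.01 log2, and Trim30d and Orc5 just outside at -0.98. Calls of 4 genes below held without any 1 sample.

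Other probe sets of the same genes were a reading that the choice did not use, on the same 12 samples. Of the 211 genes above, 106 had 197 further probe sets, of which 138 differed from every group in the same direction and 57 by at least 1 log2; 46 genes had such a second probe set. Of the 41 below, 25 had 53 further probe sets, 45 in the same direction and 13 by at least 1 log2. The same shares among further probe sets of all genes were not counted, so these counts are a description. Probe sets of Aff3, Nfix and Mfhas1 other than the one used fell short of 1 log2.

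Several of the genes were neighbours. With members within 1 Mb of the next grouped (RefSeq, GRCm38.p6), 91 of the 252 fell into 38 groups. How many groups other sets of 252 genes would form was not tested. On chromosome 14, Gzmc, Gzmd, Gzme, Gzmf, Gzmg, Ctsg and Ltb4r1 formed a group of 7, all above. On chromosome 6, Klrb1a, Klrk1, Klrc1, Klra5 and Klra7 of the NK gene complex were 5, all above, and on chromosome 13 Gzma, Gzmk, Esm1 and Gpx8 were 4. On chromosome 7, Tjp1, Chsy1, Lrrk1, Mef2a and Lrrc28 were also 5, all above, and Ifitm1, Ifitm2, B4galnt4 and Adam8 shared another group. Cd5 and Cd6 were a pair on chromosome 19 and Ccr7 and Igfbp4 on chromosome 11, both pairs below. Other pairs held 1 gene above and 1 below, such as Ctsd and Cd81 on chromosome 7.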

How the data were processed

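Each of 12 RNA samples was hybridised to 1 Affymetrix Mouse Genome 430 2.0 array, read with GCOS 1.1. The authors deposited log2 RMA values (RMA background correction, normalization and summary; version not given in the sources used here). RMA assumes like distributions across arrays, so a shift shared by most genes would not be seen; array medians were 6.23 to 6.42. Arrays give no read depth, and the number of arrays limits precision. Of 45101 probe sets, 64 controls were left out and 45037 tested. Names came from GEO's platform annotation, updated through Entrez to RefSeq: 34945 probe sets had 1 symbol, 932 several and 9160 none. Probe sets that match several sequences (_x_ and _s_ in the name) stood for a gene only where it had no other, as for 290 genes. Among the probe sets of a gene left by this, the brightest on average was used, giving 18193 genes. Groups followed the labels. The 4 groups were fitted together in limma 3.58.1 (R 4.3.3), with 8 residual and 3.03 prior degrees of freedom, and Storey q values at the methods' threshold of 0.01. The smallest difference is the one from the nearest other group. Simulated data for this comparison held 45037 probe sets, with 67 changed at each size. The call recovered 11.9% of 2-fold, 80.6% of 4-fold and 92.5% of 8-fold changes, with 0 false calls. A 2-fold change lies at the call's own limit of 1 log2. Whether these shares and the 0 false calls hold for the measured arrays was not tested. The rule for named genes took the 12 called genes per direction with the largest smallest difference and no overlap, up to 4 members of each list, the 2 genes on each side of the limit, the coreceptors and the most abundant marker of each other cell type; further genes are described as list members or as chosen after their values were seen. The members and lists were chosen with earlier results of these data known, so the list counts describe these arrays and are no separate evidence. Of the lists, 23 came with the design and 4 were added after values were seen. Promoters (RefSeq, GRCm38.p6), 1 per gene by the first start listed, were searched for 7 motifs on both strands. Alternatives covered normalization, the probe set filter and summary, the adjustment, thresholds, array weights, a replicate block, separate pairwise fits and each sample left out.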

Additional observations from a re-analysis of the deposited data

Results flagged for a closer look

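Among the 5 NKT-like cultures, 4 of the 81 named genes had 1 sample apart from the other 4 by Dixon's criterion (gap over range above 0.71), which chance gives in about 1 in 20 groups. Esm1 was lowest in replicate 1, at 8.60. Fasl was highest in replicate 2, at 11.57. Ifih1 was highest in replicate 2, at 7.25. Sesn2 was lowest in replicate 4, at 8.04. Replicate 2 was the sample apart in 2 of these genes and replicates 3 and 5 in 0.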

How the results depend on the processing

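Of 211 genes above and 41 below by the 2-fold rule, 104 and 19 were called, and of all probe sets 169 and 34. Leaving out 1 sample gave 50 to 97 genes called above and 9 to 21 below, 76 to 163 and 19 to 38 probe sets, and 188 to 240 and 32 to 50 genes by the 2-fold rule. In groups of 2 the lone sample was then assumed to vary like the other groups. The lowest count above, 50, came without activated replicate 2; without naive replicate 2 it was 58, without cultured CD4+ replicate 2 62 and without replicate 3 65, and the corresponding probe set counts were 76, 91, 104 and 104. Genes called below numbered 9 without naive replicate 1, 12 without naive replicate 2, 11 without cultured CD4+ replicate 2 and 12 without replicate 3, and probe sets 20, 21, 19 and 20. Each pair of groups fitted alone gave 69 genes and 109 probe sets above. At a q of 0.05 there were 161 and 33 genes and 265 and 59 probe sets. Array weights gave 33 and 6 genes and 49 and 13 probe sets. The replicate block gave 35 and 3 genes and 49 and 7 probe sets. Whether equal replicate numbers pair the samples was not settled. In deviations from the group means, 13 same-number pairs correlated at -0.501 to 0.28, with 3 over 0.1. The 38 other pairs gave -0.376 to 0.501, with 14 over 0.1. In groups of 2 the deviations mirror each other, so these correlations cannot decide the pairing. A difference of at least 2 log2 left 49 and 8 genes by the rule. A single contrast against the mean of the other groups gave 543 and 180 genes and 919 and 364 probe sets. Averaging cultured CD4+ replicates 2 and 3, chosen after seeing the data, gave 62 and 12 genes and 101 and 20 probe sets. The causes were not tested. Of 42 named called genes, 25 kept q of 0.01 without any 1 sample, 25 lost it under array weights, 18 under the replicate block and 9 in pairwise fits, and 0 named genes reversed. Median centring moved the median of all probe sets between NKT-like and naive cells from -0.095 to 0.02 log2.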
